A study of Homo sapiens with 6 samples.

Results

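The actin genes (ACTC1, ACTA1, ACTA2, ACTG2, ACTB and ACTG1) and the tropomyosin genes (TPM1, TPM2, TPM3 and TPM4) were measured by RNA sequencing in human cardiomyocytes made from the established pluripotent stem cell line WTC11. These 10 genes were taken by symbol from the 38557 genes of the deposited count tables, and all 10 passed the filter on low counts. Cultures were kept in RPMI plus B27, a basal medium with a serum-free supplement, or in DMEM plus fatty acids, with 3 biological replicates of each, numbered 1 to 3 in both media. The labels give no further treatment or genotype, no composition of the media and no time in culture, and since all 6 cultures come from 1 line, the replicate spread says nothing about other lines. They do not say whether the replicates come from separate differentiations, so p-values measure the spread between these cultures only. All differences are given for DMEM plus fatty acids relative to RPMI plus B27, and the question was how the isoforms of both families differ between these media. The basal medium and its additions change together between the groups, so their parts cannot be told apart.

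Actin subunits polymerize into thin filaments, and tropomyosin dimers lie end to end along them and, together with the troponin complex, gate the access of myosin in striated muscle. ACTC1 is the cardiac and ACTA1 the skeletal muscle sarcomeric actin, and heart muscle uses both. ACTA2 and ACTG2 are the smooth muscle actins, and ACTA2 is also made by immature cardiomyocytes and by activated fibroblasts. ACTB and ACTG1 encode the beta and gamma cytoplasmic actins of nearly all cells. TPM1 gives the main tropomyosin of the human heart, TPM2 the beta-tropomyosin of slow skeletal and smooth muscle, and TPM3 and TPM4 mostly give cytoskeletal tropomyosins outside skeletal muscle. Each tropomyosin gene makes several proteins by alternative promoters and splicing.

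The actins are so alike that their differing first codons are shown, because they distinguish the 3 classes described below. Each line gives the start of the reading frame, 5′ to 3′ on the coding strand, from the GENCODE version 29 transcripts (GRCh38), aligned by the end of the reading frame, with capitals where a base differs from ACTC1 at the aligned position.
ACTC1: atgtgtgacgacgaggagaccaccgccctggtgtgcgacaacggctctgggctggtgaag
ACTA1: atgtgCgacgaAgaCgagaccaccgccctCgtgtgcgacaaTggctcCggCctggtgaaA
ACTA2: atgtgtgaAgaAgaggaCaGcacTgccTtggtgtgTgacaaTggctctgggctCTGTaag
ACTG2: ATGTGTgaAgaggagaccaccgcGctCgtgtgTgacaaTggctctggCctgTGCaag
ACTB: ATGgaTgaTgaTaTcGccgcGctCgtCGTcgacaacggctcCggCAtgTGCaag
ACTG1: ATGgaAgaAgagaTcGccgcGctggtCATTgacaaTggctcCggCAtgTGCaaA
These bases lie in coding exons at chr15:34794749-34794808 for ACTC1, chr1:229433056-229433115 for ACTA1 and chr10:88948871-88948930 for ACTA2, all on the minus strand, and at chr2:73901312-73901368 for ACTG2 on the plus strand. Those of ACTB and ACTG1 lie on the minus strand at chr7:5529604-5529657 and chr17:81512301-81512354. The frame is 1 codon shorter at its start in ACTG2 and 2 codons shorter in ACTB and ACTG1 than in ACTC1. ACTA1 differed from ACTC1 at 8 of the positions shown, ACTA2 at 12, ACTG2 at 15, ACTB at 19 and ACTG1 at 20. No gap was opened, so the start codons of the shorter frames are shifted against that of ACTC1. They stand in capitals and count as differences, although every frame begins with the same start codon. The counts of ACTG2, ACTB and ACTG1 thus include this shift and do not rank the genes by closeness. Over the whole frame, ACTB and ACTG1 were identical at 91.3% of 1125 bases, and the other 14 pairs of actins at 81.96% to 85.8%.

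The corresponding starts of the principal reading frames of TPM1, TPM2 and TPM4 are given with capitals where a base differs from TPM1, to show how close the tropomyosin genes are.
TPM1: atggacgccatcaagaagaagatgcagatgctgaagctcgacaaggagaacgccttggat
TPM2: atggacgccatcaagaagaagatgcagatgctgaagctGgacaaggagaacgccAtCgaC
TPM4: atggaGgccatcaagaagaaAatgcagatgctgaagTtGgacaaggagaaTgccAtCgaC
They lie at chr15:63042830-63042889 for TPM1 and chr19:16067625-16067684 for TPM4 on the plus strand, and at chr9:35689758-35689817 for TPM2 on the minus strand. TPM2 differed from TPM1 at 4 of the positions shown and TPM4 at 8. The annotation lists 17 distinct coding sequences for TPM1, 4 for TPM2, 11 for TPM3 and 4 for TPM4, and counts per gene do not separate them, so a muscle and a cytoskeletal product of the same gene cannot be told apart here.

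Reads aligned to more than 1 place stand in a row of their own in the deposited tables and not with a gene, which matters for near-identical copies. Of the 50-base words of the annotated transcript used for each gene, 22.9% in TPM4, 10.3% in ACTB, 7.33% in TPM3 and 3.58% in ACTG1 also occur in a transcript of another gene. The share was 1.87% or less in ACTA1, ACTC1 and ACTG2 and 0% in ACTA2, TPM1 and TPM2. With 100-base words it was 3.40% in TPM4, 1.05% in TPM3, 0.165% in ACTB and 0% in the other 7 genes. The read length is not given in the sources used here. Reads with more than 1 place came to 4.10%, 3.76% and 3.87% in RPMI plus B27 and 3.08%, 3.05% and 3.36% in DMEM plus fatty acids, without overlap. The levels of TPM4, ACTB, TPM3 and ACTG1 are therefore uncertain, and the part of these reads in their differences between media was not tested.

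The libraries held 23232324 to 31035389 gene counts. The 14 cardiomyocyte markers summed to 33337 to 39948 CPM (gene counts scaled to library size by the trimmed mean of M values, TMM) in RPMI plus B27 and to 26700 to 37720 CPM in DMEM plus fatty acids, and none of the 14 passed the test between media. TNNT2 (cardiac troponin T) stood at 3063 to 3334 CPM in RPMI plus B27 and 3001 to 4216 CPM in DMEM plus fatty acids. The skeletal muscle genes MYOD1, MYF5, PAX7 and MYH8 had no count in any library. Only 2 of the 9 skeletal muscle markers were tested. They summed to 514, 547 and 413 CPM in RPMI plus B27 and 921, 795 and 662 CPM in DMEM plus fatty acids, without overlap. Neither passed, and 1 was lower in its fitted value. With replicate number as a block 1 passed, upward, where 4.78% of all genes passed in either direction. Markers of fibroblast and stromal cells were lower in DMEM plus fatty acids, with 7 of 14 passing, all downward, and summed to 5054 to 9346 CPM against 942 to 2209 CPM. Without the block, 1.07% of all genes tested passed downward and 1.36% in either direction. Smooth muscle markers summed to 1487 to 2320 CPM against 584 to 1159 CPM, with 2 of 9 passing, both downward. Epicardial markers summed to 1974 to 2399 CPM against 885 to 1099 CPM, with 1 of 7 passing, downward (KRT8). The endothelial sum, mostly KDR (a VEGF receptor), was 37.3 to 241 CPM against 116 to 464 CPM, with overlap, and none of 4 passed. KDR itself stood at 27.5, 143 and 239 CPM against 115, 400 and 463 CPM. It passed upward with replicate number as a block only (1.49 ± 0.21, adjusted p 0.0245 by edgeR). Only 4 of the 8 listed endothelial genes were tested, and 3 of these were lower (median log2 fold change of the 4, -1.55). With the block 2 of the 4 passed, 1 of them downward. With that block, 3 cardiomyocyte, 10 fibroblast and stromal, 4 smooth muscle and 4 epicardial markers passed, all downward, where 3.42% of all genes did. The part of other cell types in the values below was not tested.

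Of the 10 genes, 3 fell in DMEM plus fatty acids, the cytoplasmic actin ACTB and the tropomyosins TPM2 and TPM4. ACTB was 2.02-fold, TPM2 2.12-fold and TPM4 2.79-fold lower (edgeR quasi-likelihood test, Benjamini-Hochberg adjusted p under 0.05 over 16107 genes). ACTG1, the other cytoplasmic actin, was at nearly equal levels in both media. Over all genes tested, 1.07% passed downward and 1.36% in either direction. The median log2 fold change of the 10 genes was -1.10, against 0.01 over all genes, and scaling by library totals alone raised the latter to 0.12. In 7 of the 10 genes the libraries of the media did not overlap, all lower in DMEM plus fatty acids, as for 12.8% of all genes tested (25.6% did not overlap in either direction). In these bulk libraries, fewer cells of a type and less RNA per cell cannot be told apart.

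**Figure D1:**
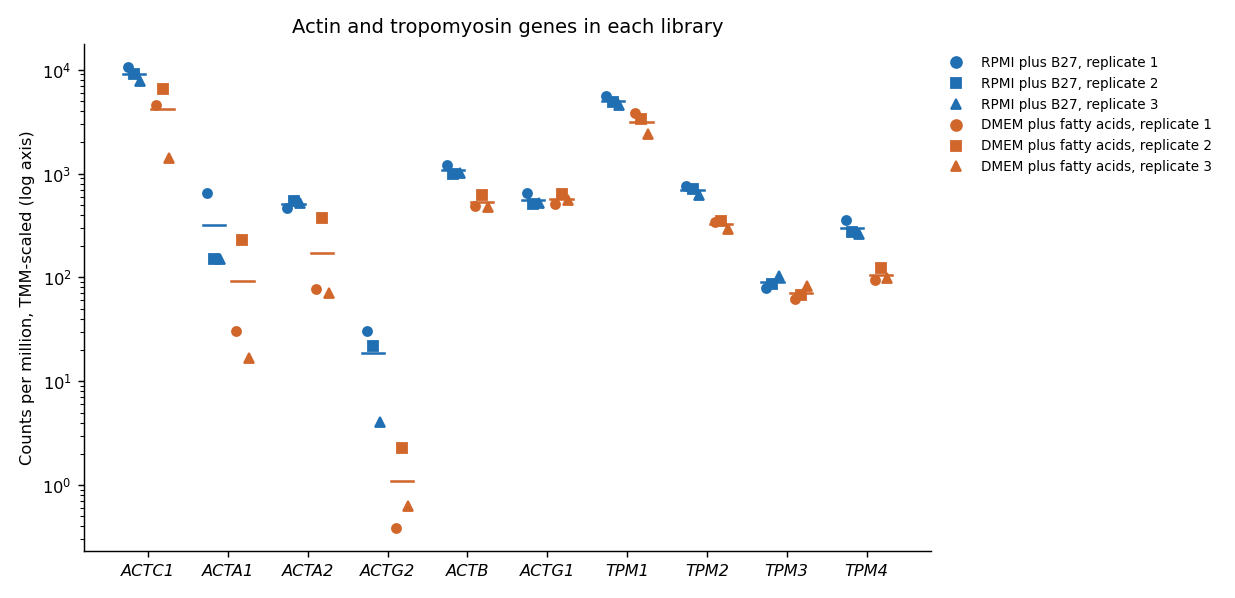
CPM (TMM-scaled, log axis) of the 10 genes in each of the 6 libraries, with blue for RPMI plus B27, orange for DMEM plus fatty acids, a marker shape per replicate number and a bar at the mean of 3. The media separate in ACTB, TPM2 and TPM4 with tight replicates, overlap in ACTG1, TPM3 and ACTA1, and the muscle actins spread widely in DMEM plus fatty acids.

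Among the cytoplasmic actins, ACTB stood at 1210, 987 and 1016 CPM in RPMI plus B27 replicates 1 to 3 and at 487, 624 and 480 CPM in DMEM plus fatty acids. Every DMEM plus fatty acids library was below every RPMI plus B27 library (log2 fold change -1.01 ± 0.17, SE, adjusted p 0.0423 by edgeR). ACTG1 stood at 656, 505 and 524 CPM against 504, 632 and 553 CPM, so the media overlapped. Its log2 fold change was 0.0035 ± 0.16 with a 95% interval of -0.37 to 0.38 (adjusted p 0.994 by edgeR), and its sign turned with the scaling, being -0.0040 with RLE size factors. The interval of ACTG1 leaves out a decrease of the size fitted for ACTB.

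The ratio of both cytoplasmic actins needs no scaling between libraries. ACTB made up 64.8%, 66.2% and 66.0% of the summed ACTB and ACTG1 counts in RPMI plus B27, and 49.1%, 49.7% and 46.5% in DMEM plus fatty acids. The mean thus went from 65.7% ± 0.714 to 48.4% ± 1.70 (SD, n = 3 each, exact two-sided permutation p 0.1, the smallest that 3 against 3 libraries can give, and 0.19 when adjusted over 19 comparisons of shares, ratios and sums). The difference of -17.2 percentage points was larger than the spread within either medium, and it was -15.7, -16.5 and -19.5 points within replicates 1, 2 and 3. This share was chosen after its values were seen.

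**Figure D2:**
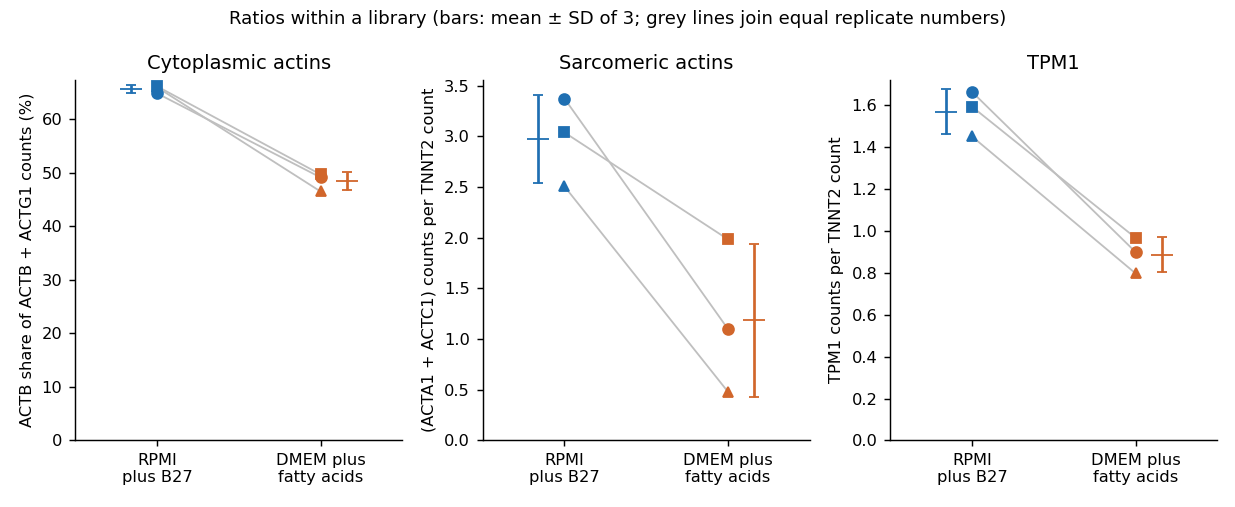
ACTB as a percentage of ACTB plus ACTG1 counts (left), ACTA1 plus ACTC1 counts per TNNT2 count (middle) and TPM1 counts per TNNT2 count (right), with a point per library, grey lines joining equal replicate numbers and mean ± SD beside the points. In each panel all 3 DMEM plus fatty acids libraries lie below all 3 RPMI plus B27 libraries, and the middle panel has the widest spread in DMEM plus fatty acids.

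The sarcomeric actins were lower on average in DMEM plus fatty acids but uneven between replicates, and neither passed. ACTC1, the most highly counted of the 10 genes in 5 of the 6 libraries, stood at 10597, 9153 and 7765 CPM in RPMI plus B27 and at 4595, 6573 and 1418 CPM in DMEM plus fatty acids. The media did not overlap, but the 3 DMEM plus fatty acids libraries ranged more than 4-fold among themselves, with replicate 3 lowest (log2 fold change -1.13 ± 0.50, adjusted p 0.298 by edgeR). Without DMEM plus fatty acids replicate 3, the log2 fold change of ACTC1 was -0.71. ACTA1 stood at 649, 152 and 150 CPM against 30.3, 228 and 16.7 CPM. Here RPMI plus B27 replicate 1 was high, and DMEM plus fatty acids replicate 2 lay above the other RPMI plus B27 libraries, so the media overlapped (-1.79 ± 1.03, adjusted p 0.411). That value was -0.72 without RPMI plus B27 replicate 1 and -3.75 without DMEM plus fatty acids replicate 2.

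Set against TNNT2, a thin filament partner of the cardiomyocyte, the sarcomeric actins separated the media. ACTA1 and ACTC1 together had 3.37, 3.04 and 2.51 counts per TNNT2 count in RPMI plus B27 and 1.10, 1.98 and 0.478 in DMEM plus fatty acids. The means were 2.97 ± 0.437 and 1.19 ± 0.756 (SD, n = 3 each, exact two-sided permutation p 0.1, 0.19 adjusted over 19). TPM1 had 1.66, 1.59 and 1.45 counts per TNNT2 count against 0.899, 0.967 and 0.797, with means of 1.57 ± 0.108 and 0.888 ± 0.0854 and the same exact p. A ratio of this kind shows unequal change and not which gene moved, and TNNT2 itself had a log2 fold change of 0.16 ± 0.19 (adjusted p 0.706 by edgeR).

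The smooth muscle actins were also lower on average in DMEM plus fatty acids. ACTA2 stood at 462, 545 and 525 CPM in RPMI plus B27 and at 76.5, 372 and 70.2 CPM in DMEM plus fatty acids, where replicate 2 was close to the RPMI plus B27 range and the other 2 far below it (-1.56 ± 0.62, adjusted p 0.253 by edgeR). Without DMEM plus fatty acids replicate 2 it was called, with a log2 fold change of -2.80 and an adjusted p of 0.00966 (range over 12 alternatives 0.00966 to 0.441). ACTG2 was the rarest of the 10 genes, with 30.5, 22.0 and 4.03 CPM against 0.388, 2.27 and 0.622 CPM, and RPMI plus B27 replicate 3 was low within its medium. Its log2 fold change was -4.08 ± 0.90 (adjusted p 0.0815 by edgeR), and it passed once replicate number entered the fit as a block, at -3.91 ± 0.63 (adjusted p 0.0297, range over 11 alternatives 0.00220 to 0.184). TAGLN (transgelin), a smooth muscle marker, stood at 478, 432 and 333 CPM in RPMI plus B27 and at 48.6, 253 and 47.3 CPM in DMEM plus fatty acids, where replicate 2 was also the highest.

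ACTA2 and TPM1 overlap antisense genes that had far fewer counts. ACTA2-AS1 had 54, 36 and 41 counts in RPMI plus B27 and 8, 12 and 17 in DMEM plus fatty acids, and TPM1-AS had 702, 375 and 654 against 274, 243 and 298. ACTA2-AS1 passed (-2.005 ± 0.33, adjusted p 0.0423 by edgeR), whereas TPM1-AS passed with the replicate block only (-1.20 ± 0.16, adjusted p 0.0657 without and 0.0219 with it). These genes were chosen for their position. The kit marks the strand, but the strand setting of the counting is not given in the sources used here, so antisense counts are uncertain.

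All 4 tropomyosin genes were lower on average in DMEM plus fatty acids, and 2 passed. TPM2 stood at 751, 712 and 619 CPM in RPMI plus B27 and at 339, 352 and 294 CPM in DMEM plus fatty acids, with replicates within 10% of their mean as a coefficient of variation in both media (9.74% and 9.22%). Its log2 fold change was -1.08 ± 0.14 (adjusted p 0.0292 by edgeR). TPM4 stood at 355, 273 and 263 CPM against 95.3, 124 and 99.5 CPM, the largest drop among the tropomyosins in the fitted value (-1.48 ± 0.17, adjusted p 0.0252). In both genes the media were well apart.

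TPM1, the main cardiac tropomyosin, stood at 5550, 4881 and 4585 CPM against 3790, 3316 and 2392 CPM. The media did not overlap, with DMEM plus fatty acids replicate 3 lowest, but the gene did not pass (-0.66 ± 0.22, adjusted p 0.187 by edgeR). The DESeq2 Wald test called it (adjusted p 0.0353, range over 12 alternatives 0.0353 to 0.375). TPM3 stood at 78.9, 86.5 and 102 CPM against 62.3, 67.9 and 83.0 CPM, with overlap (-0.33 ± 0.15, adjusted p 0.319). Counts of the pseudogene TPM3P9 came to 6.39% of those of TPM3 over all libraries.

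The 3 calls rested on the full set of 6 libraries. Without RPMI plus B27 replicate 1, 2 and 3 there were 1 (TPM4), 0 and 3 calls among the 10 genes, the last being ACTG2, TPM2 and TPM4. Without DMEM plus fatty acids replicate 1, 2 and 3 there were 0, 1 (ACTA2) and 0. Calls over all genes fell as well, from 219 of 16107 genes tested. They were 30 of 16425, 4 of 16522 and 131 of 16579 without RPMI plus B27 replicate 1, 2 and 3. Without DMEM plus fatty acids replicate 1, 2 and 3 they were 11 of 16548, 12 of 16555 and 3 of 16453. ACTB had a log2 fold change of -1.15 to -0.92 in these 6 fits and no call (adjusted p 0.0716 to 0.118 by edgeR), TPM2 -1.15 to -1.003 with 1 call (0.0418 to 0.109) and TPM4 -1.61 to -1.33 with 2 calls (0.0410 to 0.0915). The sizes of these 3 thus moved little while the adjusted p crossed the threshold. With the replicate block 4 of the 10 passed, ACTB (0.0319), TPM2 (0.0142), TPM4 (0.0148) and ACTG2, all lower, where 3.42% of all genes passed downward and 4.78% in either direction.

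Counts were then expressed as shares of each family, in which no scaling enters. ACTC1 held 77.9%, 80.5% and 77.8% of the actin counts in RPMI plus B27 and 80.7%, 78.0% and 55.9% in DMEM plus fatty acids. The cytoplasmic actins together held 13.7%, 13.1% and 15.4% against 17.4%, 14.9% and 40.7%, so DMEM plus fatty acids replicate 3 stood apart and the media overlapped (exact two-sided permutation p 0.2, 0.292 adjusted). The mean difference of 10.2 points was 2.06 points without that library. Both cytoplasmic genes were then taken apart. The ACTG1 share was higher in each DMEM plus fatty acids library, at 4.82%, 4.44% and 5.25% against 8.85%, 7.49% and 21.8%, whereas the ACTB share was 8.89%, 8.68% and 10.2% against 8.55%, 7.40% and 18.9%. The exact p was 0.1 for ACTG1, the smallest possible, and 1 for ACTB. ACTA1 held 5.77%, 1.63% and 1.89% of the sarcomeric actin counts against 0.654%, 3.35% and 1.17%, with overlap (exact p 0.5).

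**Figure D3:**
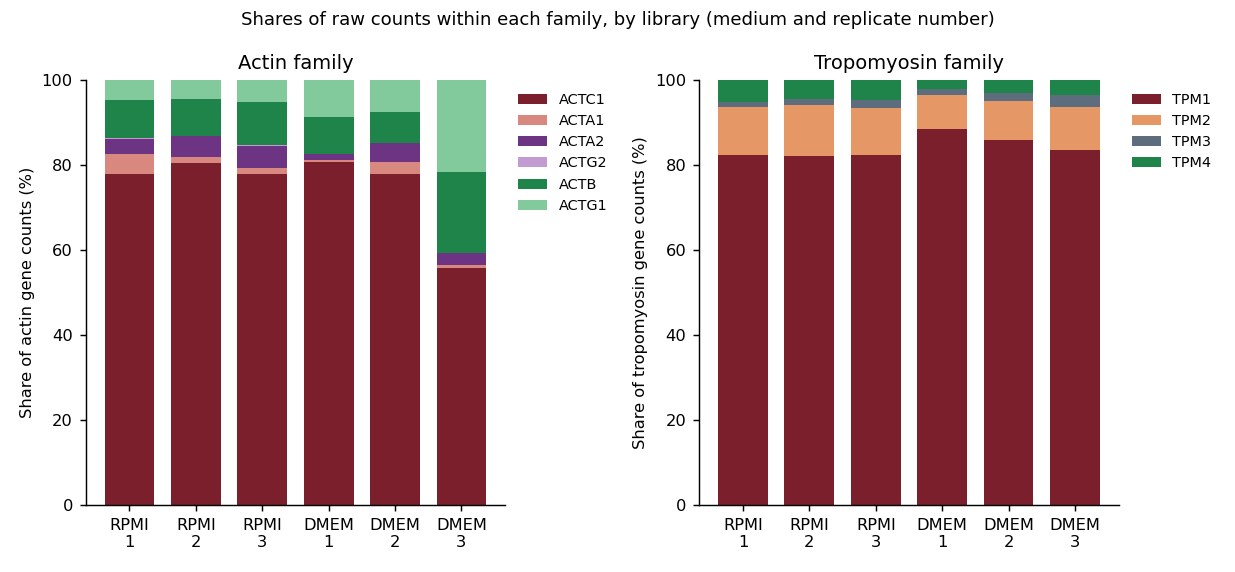
Stacked shares of raw counts (%) of the 6 actin genes (left) and the 4 tropomyosin genes (right) in each library, labelled by medium and replicate number. ACTC1 and TPM1 hold most of their family in every library, DMEM plus fatty acids replicate 3 has the smallest ACTC1 share at 55.9%, and the TPM1 share is higher in all 3 DMEM plus fatty acids libraries.

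Among the tropomyosins the TPM1 share was 82.4%, 81.99% and 82.3% in RPMI plus B27 and 88.4%, 85.9% and 83.4% in DMEM plus fatty acids. TPM2 went from 11.2%, 11.97% and 11.1% to 7.91%, 9.11% and 10.2%, and TPM4 from 5.27%, 4.59% and 4.72% to 2.22%, 3.22% and 3.47%. In these 3 genes the media did not overlap (exact two-sided permutation p 0.1 each, 0.19 adjusted over 19). TPM1 thus held a larger share of a smaller sum. TPM3 held 1.17%, 1.45% and 1.84% against 1.45%, 1.76% and 2.89%, with overlap. The 95% Wilson interval of any single share was at most 0.646 percentage points to either side, for counting error only, so the spread between libraries is what limits these comparisons.

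Summed and scaled to library totals alone (CPM without TMM), the actin family had 12917, 11110 and 9586 CPM in RPMI plus B27 and 5692, 8658 and 2760 CPM in DMEM plus fatty acids. The tropomyosin family had 6395, 5820 and 5348 against 4285, 3965 and 3119 CPM. Both sums were below the RPMI plus B27 range in each DMEM plus fatty acids library (exact two-sided permutation p 0.1 each, 0.19 adjusted over 19). The actin sum followed ACTC1 in its spread, and the tropomyosin sum was more even.

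Levels of different genes were compared per kilobase of the annotated transcript. In RPMI plus B27 the order was TPM1 (4771 CPM per kb), ACTC1 (2483), ACTB (557), TPM2 (499), ACTA2 (378), ACTG1 (249), ACTA1 (212), TPM4 (117), TPM3 (58.6) and ACTG2 (9.13). The libraries of ACTB overlapped those of TPM2, and those of ACTA1 overlapped those of ACTA2, ACTG1 and TPM4. In DMEM plus fatty acids the order was TPM1 (3018 CPM per kb), ACTC1 (1136), ACTB (276), ACTG1 (249), TPM2 (236), ACTA2 (128), ACTA1 (61.4), TPM3 (46.7), TPM4 (41.9) and ACTG2 (0.530). There ACTB, ACTG1 and TPM2 overlapped one another, ACTA2 overlapped these 3 as well as ACTA1 and TPM3, and ACTA1, TPM3 and TPM4 overlapped one another. The annotated ACTC1 transcript is 3694 bases long, and per kilobase of coding sequence ACTC1 (8109) stood above TPM1 (5875) in RPMI plus B27, so the order of these genes depends on the transcripts in use.

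The profiles of the 10 genes over the 6 libraries were compared by the root mean square difference of log2 CPM after subtracting each gene's mean. ACTB and TPM2 were the closest pair (0.12), followed by ACTB with TPM4 (0.24) and TPM2 with TPM4 (0.24), all of which passed, so their closeness includes the difference between media. ACTG1 was closest to TPM3 (0.30). ACTG2 was the farthest from the others (1.23 to ACTA1, its nearest). Among the remaining actins ACTB and ACTG1 were closest (0.52), followed by ACTC1 with ACTB (0.62) and ACTA2 with ACTC1 (0.67). ACTA1, ACTA2 and ACTC1 were each highest within DMEM plus fatty acids in replicate 2 and lowest in replicate 3, as the map of deviations shows.

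**Figure D4:**
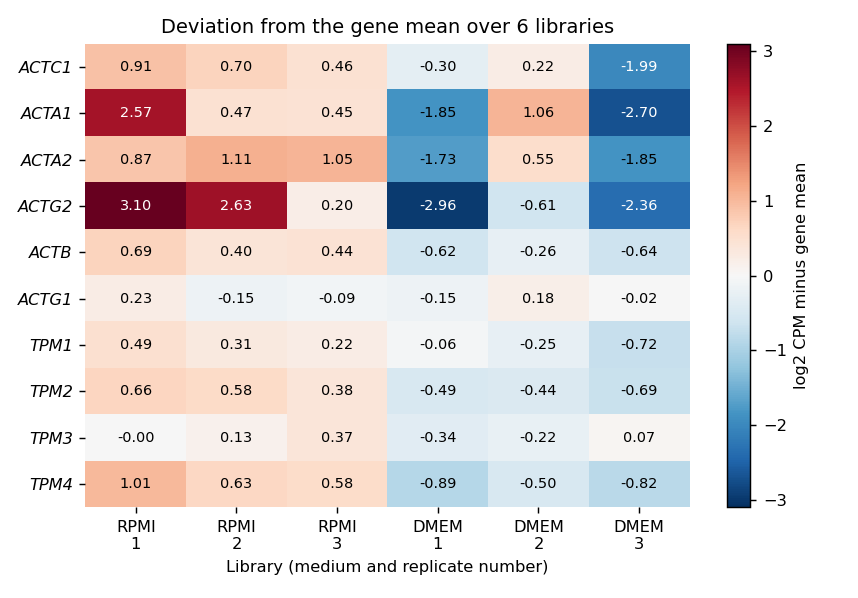
Deviation of log2 CPM from each gene's mean over the 6 libraries, with a row per gene and a column per library (red above, blue below the mean). ACTB, TPM2 and TPM4 are above their mean in all RPMI plus B27 libraries and below it in all DMEM plus fatty acids libraries, ACTG1 stays within 0.23 of its mean, and the muscle actins vary most between replicates.

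Over all 16107 genes tested, the profiles most like ACTB included DCBLD1 (root mean square difference 0.06, adjusted p 0.0588 by edgeR and 0.0390 with the replicate block) and PEA15 (0.11) over the 6 libraries. For TPM2 they were KLHL29 (0.10), MMP24-AS1-EDEM2 (0.10) and PELI1 (0.10), and for TPM4 they were PROSER2 (0.06), LOXL2 (0.15) and IGFBP7 (0.16). LOXL2, a lysyl oxidase of the extracellular matrix, stood at 246, 184 and 139 CPM against 58.1, 89.1 and 61.4 CPM. IGFBP7, a secreted insulin-like growth factor binding protein, stood at 271, 233 and 187 CPM against 59.8, 80.1 and 78.4 CPM. KLHL29 and MMP24-AS1-EDEM2 were at most 2.41 CPM in every library.

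Genes that act on actin filaments were taken from 7 lists by role, 102 of 104 of which were tested. Of these, 4 passed, all lower in DMEM plus fatty acids, or 3.92%, where 1.07% of all genes passed downward and 1.36% in either direction. The median log2 fold change of the 102 was -0.22, with 81 of 102 lower, against 0.01 and 49.0% lower for all genes. With library totals alone 68 of 102 were lower. LMOD1 (leiomodin 1, a filament nucleator of smooth muscle, also among the smooth muscle markers above) went from 182 ± 18.7 to 59.0 ± 15.5 CPM (-1.62 ± 0.21, adjusted p 0.0292 by edgeR). TMSB4X (thymosin beta 4, which sequesters actin monomers) went from 108 ± 23.0 to 48.3 ± 6.53 CPM (-1.16 ± 0.18, adjusted p 0.0402). COTL1 (coactosin-like protein, which binds filaments) went from 74.6 ± 17.7 to 19.0 ± 7.66 CPM (-1.97 ± 0.32, adjusted p 0.0421; all ± of levels are SD, n = 3).

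**Figure D5:**
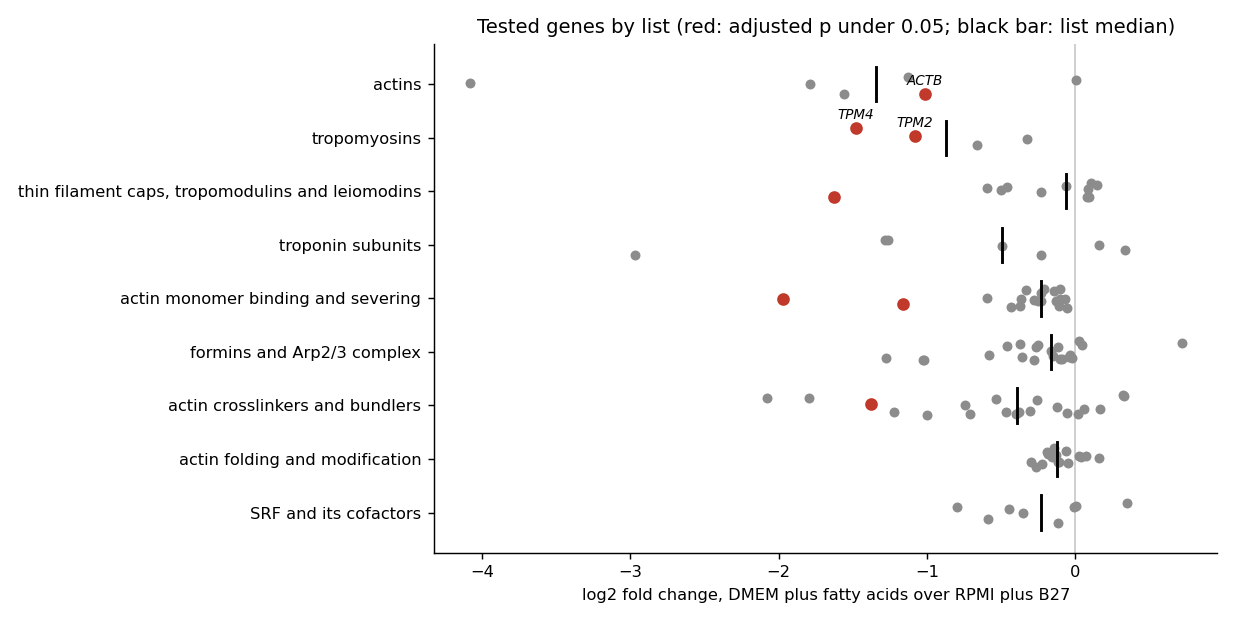
Log2 fold change (DMEM plus fatty acids relative to RPMI plus B27) of every tested gene of both families and of the 7 lists of actin filament genes, with red points for an adjusted p under 0.05 and a black bar at the list median. The 7 red points all lie at -1.01 or below, and the medians of the actin (-1.35) and tropomyosin (-0.87) families lie below those of the other lists.

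By list, 1 of 11 genes of filament caps, tropomodulins and leiomodins passed (LMOD1), 2 of 19 genes of monomer binding and severing (TMSB4X and COTL1) and 1 of 20 crosslinkers and bundlers. The share over all genes tested was 1.36% in either direction. None of 7 troponin subunits, 21 formins and Arp2/3 subunits, 16 folding and modification genes or 8 genes of SRF and its cofactors passed by edgeR. By the DESeq2 Wald test 17 genes of the 7 lists passed, where that test called 7.53% of all genes. In the lists without a call, the smallest p values were those of TNNT1 (slow skeletal troponin T, -1.26 ± 0.28, adjusted p 0.0808), ARPC1B (an Arp2/3 subunit, -0.58 ± 0.12, adjusted p 0.0642), SETD3 (the actin histidine methyltransferase, -0.27 ± 0.10, adjusted p 0.243) and MYOCD (myocardin, a cofactor of serum response factor, -0.45 ± 0.14, adjusted p 0.165, all by edgeR).

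With the replicate block 9 of the 102 passed, 8 lower and 1 higher, where 3.42% of all genes passed downward and 4.78% in either direction. Those added were TNNT1 (0.00823), ARPC1B (0.0414), ACTN2 (alpha-actinin 2 of the Z-disc, -1.05 ± 0.21, 0.0494), FLNA (filamin A, -0.70 ± 0.13, 0.0438) and, upward, the formin FMNL2 (0.71 ± 0.13, 0.0401), given as adjusted p values by edgeR. ACTN2 and FLNA were named after their values were seen. Leaving out 1 library left 0 calls among these genes, except 1 (TMSB4X) without RPMI plus B27 replicate 3. Over all genes it left 3 to 131 calls.

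Since several actins are known targets of serum response factor, promoter windows of RefSeq (GRCh38.p14, 250 bases before to 50 after a gene's start) were searched on both strands for the CArG box, which reads the same in its general form on either strand. Windows were found for 9 of the 10 genes (all but ACTB), 16 in all. Those of TPM1 and TPM3 all lie downstream of the start of the principal reading frame, so the stretch before these frames was not searched. A box was found in 5 of the 16 windows, of 5 genes, and in 1.29% of all 35116 windows. The matches are shown with 10 bases to either side and the box in capitals, 5′ to 3′ on the gene's strand, to compare genes of different response.
ACTC1: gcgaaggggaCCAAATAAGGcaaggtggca
ACTA1: tgcccaacacCCAAATATGGctcgagaagg
ACTG2, distal: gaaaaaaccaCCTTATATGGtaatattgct
ACTG2, proximal: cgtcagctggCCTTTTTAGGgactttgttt
ACTG1: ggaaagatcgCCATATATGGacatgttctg
TPM4: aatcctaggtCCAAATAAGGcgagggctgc
They lie at chr15:34795639-34795668 (ACTC1), chr1:229434172-229434201 (ACTA1) and chr17:81512874-81512903 (ACTG1), all on the minus strand, and at chr2:73892888-73892917 and chr2:73892925-73892954 (ACTG2) and chr19:16067355-16067384 (TPM4) on the plus strand. The boxes begin 109 bases before the start site in ACTC1, 97 in ACTA1, 110 and 73 in ACTG2, 94 in ACTG1 and 173 in TPM4. ACTC1 and TPM4 hold the same 10 bases. Genes with a match include ACTG1, with a log2 fold change of 0.0035, and TPM4, with -1.48. TPM2, which passed, and ACTA2 have none in their windows. Only the strict form of CC, 6 bases of A or T and GG was searched, so boxes that depart from it were not counted. SRF itself stood at 160, 225 and 256 CPM in RPMI plus B27 and at 167, 165 and 95.5 CPM in DMEM plus fatty acids (-0.59 ± 0.26, adjusted p 0.298 by edgeR, with overlap). A match describes these letters only and is neither a site nor a cause.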

How the data were processed

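Messenger RNA of 6 cultures was sequenced from a stranded kit, per the labels' protocols. The authors deposited a table of raw counts for each library, with gene symbols as names, made with STAR and HTSeq on hg38, per the submitters' processing notes, which give no version or annotation. Rows that name no gene were set aside: 5.44% to 7.57% of counted reads had no feature, 3.90% to 4.15% were ambiguous and 3.05% to 4.10% aligned to more than 1 place.

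Counts of all 38557 genes entered edgeR 4.0.16 (R 4.3.3, filterByExpr with minimum count 10 and minimum total 15, 16107 genes left, TMM, quasi-likelihood test of medium without covariates, Benjamini-Hochberg, threshold 0.05). Standard errors follow from the F statistic. DESeq2 1.42.0, other scalings and filters, the replicate block and leaving out each library were alternatives. Log2 CPM for profiles used a prior count of 2. Shares and ratios used raw counts and exact two-sided permutation tests (SciPy 1.17.1). The edgeR fit was tried on simulated counts, and the exact tests on values with known answers. No 2 libraries agreed within sampling noise (smallest chi-square per degree of freedom 29.4). Genome positions, transcript lengths and coding sequences are from GENCODE version 29 on GRCh38, the same assembly as hg38. For each gene the principal transcript with the longest coding sequence was used.

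The 10 genes and all lists were chosen with earlier results of these data known. Named are the 10 genes, TNNT2, partner genes past the threshold or otherwise with the smallest p of their list (up to 3), at most 3 genes of a marker list, and for each of the 10 genes past the threshold the 3 genes of nearest profile; some items that the rule names are not reported here. The share of ACTB among cytoplasmic actins, the family sums, the antisense genes and SRF were added after seeing the data. Deviations of libraries with the same replicate number from their medium's mean correlated across genes at 0.31, 0.43 and 0.37 (replicates 1, 2 and 3), against -0.24 to -0.14 for unequal numbers. Nothing in the labels states what a number stands for, so the main fit and the exact permutation tests leave the number out. Their p-values thus do not use these shared deviations. The replicate block was an alternative, and values with the block are given where it changes a call.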

Additional observations from a re-analysis of the deposited data

How the results depend on the processing

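Of 16107 genes tested, 219 passed (47 higher, 172 lower in DMEM plus fatty acids). The count was 539 with no filter beyond 1 count, 119 with at least 10 counts in every library, 770 with the replicate block, 1212 by the DESeq2 Wald test and 3 to 131 without 1 library. With library totals alone 202 passed, 74 higher and 128 lower. Among the 10 genes 3 passed, 5 by DESeq2 (ACTB, ACTG2, TPM1, TPM2 and TPM4) and 0 to 3 without 1 library. ACTG2 was also called with no filter, and ACTB was not called (adjusted p 0.0501) with at least 10 counts in every library, a filter that removes ACTG2. DESeq2 gave ACTA1 no adjusted p. Among actin filament genes 4 passed, 9 with the replicate block, 17 by DESeq2 and 0 to 1 without 1 library. ACTG1 turned sign with RLE size factors (-0.0040), by DESeq2 (-0.0040), with at least 10 counts in every library (-0.0012), and ranged from -0.086 to 0.13 without 1 library; the cause was not tested. No other of the 10 genes turned sign in any alternative run. The ACTB share of cytoplasmic actins differed by -17.9 to -16.3 percentage points without 1 library and the sarcomeric actin to TNNT2 ratio by -2.18 to -1.43. Per annotated transcript length the ACTA2 share differed by -3.81 points instead of -1.64, the smooth muscle share by -4.01 instead of -1.78 and the TPM4 share by -0.849 instead of -1.89. Within pairs of replicate numbers, sign-flip tests cannot give a p under 0.25. Among the 10 genes the replicate block changed the call of ACTG2 only, and the other named genes whose call it changed (TPM1-AS, DCBLD1, markers and actin filament genes) are given with their results. A count of 0 in a library allows up to 0.0967 to 0.129 CPM.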
